A study of Homo sapiens with 8 samples.

Results

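The genes of glucose transport, glycolysis and glycogen turnover were described across VHL status and oxygen in the renal cell carcinoma (RCC) line 786-O. The list named 34 genes, and each was read from the transcript cluster of the array that is annotated with its symbol alone and has the highest mean signal. A total of 33 genes were measured in this way, of 18417 genes with such a cluster among 33297 transcript clusters. PGAM1, a phosphoglycerate mutase gene, lies only on clusters annotated with a further gene and has no value. The measured genes were 6 glucose transporters of the SLC2A family, 6 genes of hexose phosphorylation up to fructose bisphosphate, 4 PFKFB enzymes, 10 genes of the reactions from aldolase to pyruvate kinase, 2 lactate dehydrogenases and 5 genes of glycogen metabolism and gluconeogenesis.

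VHL binds the alpha subunits of the hypoxia-inducible factors (HIF) when oxygen is present and, as part of an E3 ligase, has them ubiquitinated and degraded. HIF binds to hypoxia response elements and raises the transcription of glucose transporters and of many glycolytic enzymes, so that glucose is taken up and turned into lactate. Clear cell RCC usually lacks functional VHL, and its cells store glycogen and take up much glucose at normal oxygen.

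VHL+ cells were 786-O cells that carry a VHL overexpression vector, grown as stably transfected bulk cultures. VHL- cells were 786-O cells, which lack functional VHL, and their labels name no vector. Both were kept for 24 h under hypoxia (1% O2) or normoxia, which gave the 4 groups VHL+ hypoxia, VHL+ normoxia, VHL- hypoxia and VHL- normoxia, each with 2 arrays that the labels name biological replicates. An effect of transfection or selection and one of VHL cannot be told apart in this design, and neither can, in RNA of a whole culture, more cells that express a gene and more RNA per cell. VHL itself had log2 signals of 9.08 and 9.16 in VHL+ cells under hypoxia, 8.85 and 8.86 in VHL+ cells under normoxia, 8.23 and 8.51 in VHL- cells under hypoxia and 8.24 and 8.43 in VHL- cells under normoxia. The arrays of VHL+ cells were above those of VHL- cells, by 0.75 on the log2 scale under hypoxia (adjusted p = 0.00211) and by 0.52 under normoxia (adjusted p = 0.0398). The hypoxia call of VHL did not pass without either array of VHL+ cells under hypoxia, and the normoxia call passed in 2 of the 8 fits with 1 array left out. The renal marker PAX8 had signals between 10.35 and 10.71, and PTPRC, CD3E, CD14, PECAM1, VWF, CDH5, COL1A2, PDGFRB and ALB were below the median of every array, whereas COL1A1 was above it at 7.21 to 7.78. The median signal of an array was highest for VHL+ hypoxia replicate 1 (6.91) and lowest for VHL- hypoxia replicate 1 (6.60), and the median difference of all genes therefore deviated from 0. It was -0.03 for VHL+ vs. VHL- cells under normoxia, 0.18 for the same comparison under hypoxia, 0.11 for hypoxia vs. normoxia in VHL+ cells, -0.11 for hypoxia vs. normoxia in VHL- cells, 0.07 for VHL+ hypoxia vs. VHL- normoxia and 0.22 for the interaction. After quantile normalization none of these medians exceeded 0.0189.

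Of the 33 genes, called members here, 9 passed in at least 1 of 6 comparisons and 24 passed in none, where passing means an adjusted p under 0.05 in limma, a linear model that was fitted to all 33297 clusters. The share of all genes that passed in at least 1 comparison was not computed. The largest shares of all genes in a single comparison were 14.3% higher, for VHL under hypoxia, and 3.4% lower, for VHL under normoxia. In VHL+ vs. VHL- cells under normoxia, the glucose transporter gene SLC2A1, the hexokinase gene HK2, the glycogen phosphorylase gene PYGL and the phosphoglucomutase gene PGM1 were lower, and the transporter gene SLC2A10 was higher. With hypoxia in VHL+ cells, SLC2A1 and HK2 rose. In VHL- cells no member passed for hypoxia. SLC2A10 was higher in VHL+ cells under both oxygen conditions, and none of the 10 genes from aldolase to pyruvate kinase passed in any comparison.

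Promoter windows of 300 bases, from 250 before the transcription start to 50 after it, were taken from RefSeq (GRCh38.p14) to show the core letters of the hypoxia response element. The motifs searched were ACGTG, which reads CACGT on the other strand, and GCGTG, which reads CACGC on the other strand. CACGTG holds the first motif on both strands and was counted as 1 site. The windows shown belong to the 2 genes that rose with hypoxia in VHL+ cells (SLC2A1, HK2), to the 3 other genes that passed for VHL under normoxia (SLC2A10, PYGL, PGM1) and to LDHA, a known HIF target whose signal did not pass in any comparison. Capitals mark the motifs. They lie at chr1:42958819-42959118 (minus strand), chr2:74833877-74834176 (plus), chr20:46709399-46709698 (plus), chr14:50944434-50944733 (minus), chr1:63593161-63593460 (plus) and chr11:18394313-18394612 (plus).
SLC2A1: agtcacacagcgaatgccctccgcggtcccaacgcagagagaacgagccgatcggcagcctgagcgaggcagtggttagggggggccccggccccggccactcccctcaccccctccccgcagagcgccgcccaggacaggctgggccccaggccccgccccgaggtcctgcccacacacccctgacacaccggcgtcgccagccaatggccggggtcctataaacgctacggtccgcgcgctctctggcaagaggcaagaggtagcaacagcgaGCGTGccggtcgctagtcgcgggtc
HK2: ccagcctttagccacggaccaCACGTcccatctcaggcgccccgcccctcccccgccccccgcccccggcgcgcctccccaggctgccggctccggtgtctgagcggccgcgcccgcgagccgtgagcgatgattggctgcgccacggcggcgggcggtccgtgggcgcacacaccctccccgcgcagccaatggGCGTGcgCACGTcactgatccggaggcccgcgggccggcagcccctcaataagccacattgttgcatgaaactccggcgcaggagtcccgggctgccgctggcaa
SLC2A10: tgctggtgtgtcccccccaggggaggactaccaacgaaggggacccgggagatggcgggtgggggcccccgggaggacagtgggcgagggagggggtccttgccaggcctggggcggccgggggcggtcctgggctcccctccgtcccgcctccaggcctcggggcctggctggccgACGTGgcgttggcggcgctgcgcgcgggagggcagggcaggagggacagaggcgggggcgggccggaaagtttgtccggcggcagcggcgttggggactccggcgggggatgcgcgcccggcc
PYGL: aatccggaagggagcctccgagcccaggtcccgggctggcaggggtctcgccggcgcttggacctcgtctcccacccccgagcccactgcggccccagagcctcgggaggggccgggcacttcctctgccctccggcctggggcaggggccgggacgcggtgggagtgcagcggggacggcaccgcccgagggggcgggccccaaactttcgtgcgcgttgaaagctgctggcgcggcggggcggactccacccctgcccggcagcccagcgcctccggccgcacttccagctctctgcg
PGM1: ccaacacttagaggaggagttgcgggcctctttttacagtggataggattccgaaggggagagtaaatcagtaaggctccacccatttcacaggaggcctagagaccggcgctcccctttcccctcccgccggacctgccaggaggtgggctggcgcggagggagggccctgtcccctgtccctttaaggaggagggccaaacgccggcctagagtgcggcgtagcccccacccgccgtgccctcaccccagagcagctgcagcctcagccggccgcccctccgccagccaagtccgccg
LDHA: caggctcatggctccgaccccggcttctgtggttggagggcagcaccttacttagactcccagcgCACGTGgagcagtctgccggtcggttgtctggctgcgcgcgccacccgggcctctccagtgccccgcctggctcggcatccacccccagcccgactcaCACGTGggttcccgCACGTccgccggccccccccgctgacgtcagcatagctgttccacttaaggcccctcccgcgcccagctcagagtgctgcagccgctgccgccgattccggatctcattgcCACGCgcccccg

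The window of SLC2A1 held 1 GCGTG site, 25 bases after the start. HK2 held 3 sites, at positions -229, -55 and -48, and the pair nearest to the start reads GCGTG and CACGT. SLC2A10 held 1 ACGTG site at position -73, PYGL and PGM1 held none, and LDHA held 4 separate sites. Either motif was present in 22 of the 31 measured genes with a window (71.0%), compared to 48.4% of 35116 RefSeq windows of this length. ACGTG was found in 11 of them (35.5%, against 21.4% of all windows) and GCGTG in 16 (51.6%, against 36.5%). Of the 22 genes with a motif 6 passed in some comparison, and of the 9 without one 3 passed, namely PFKM, PGM1 and PYGL. The median log2 difference of hypoxia vs. normoxia in VHL+ cells was 0.19 for genes with a motif (range 0.01 to 1.49) and 0.20 for genes without (range 0.03 to 0.50). The share over all windows was not matched to the members by signal or base composition, nor limited to genes with a value on the array. For each member 1 window was read, whereas the share covers every RefSeq window of this length. A match of letters is a description of the window only.

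The comparison of VHL+ and VHL- cells at normal oxygen asks for the effect of VHL under normoxia. A total of 1 member was higher, while 3.17% of all genes were higher, and 4 members were lower, while 3.4% of all genes were lower. The median member difference was -0.13, or -0.10 relative to the median of all genes. Only 6 of the 33 members had a positive difference, compared to 41.3% of all genes and to 53.8% of all genes after quantile normalization, where 6 members were again positive. At an unadjusted p under 0.05, 3 members were higher and 8 lower. The 5 calls passed after quantile normalization too, joined by PFKM. Of all genes 4.03% were then higher and 3.59% lower. None of the 5 calls passed when the fit used only the 4 arrays of this comparison (adjusted p between 0.0725 and 0.158). The study's methods give a one-way ANOVA at an unadjusted p under 0.005, which may have covered all groups. Here it was run on the 4 arrays of a comparison alone, and is called the methods' one-way test. Of the 5 calls only PGM1 passed in it. SLC2A1 and HK2 passed whichever array was left out, with adjusted p values up to 0.0342 and 0.0495, whereas SLC2A10, PYGL and PGM1 did not pass without VHL+ hypoxia replicate 1 or 2 (adjusted p = 0.0624, 0.134 and 0.0833 for either array).

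Under hypoxia, VHL+ cells had 5 members higher than VHL- cells, namely SLC2A10, PFKM, GPI, LDHB and SLC2A6, while 14.3% of all genes were higher. No member was lower in limma (3 at an unadjusted p under 0.05, 0 in the methods' one-way test), while 1.72% of all genes were lower. The median member difference of 0.13 was below that of all genes by 0.06, and 22 of 33 members were positive compared to 87.1% of all genes. After quantile normalization only PFKM passed as higher (0.37, adjusted p = 0.0236), SLC2A10 had a difference of 1.14 (adjusted p = 0.0579), and PGM1 (-0.57, adjusted p = 0.0154) and PYGL (-0.75, adjusted p = 0.0478) were lower. Of all genes 4.19% were then higher and 3.62% lower. None of the 5 calls passed without VHL+ hypoxia replicate 1 or without VHL+ hypoxia replicate 2 (adjusted p between 0.0502 and 0.361).

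**Figure D1:**
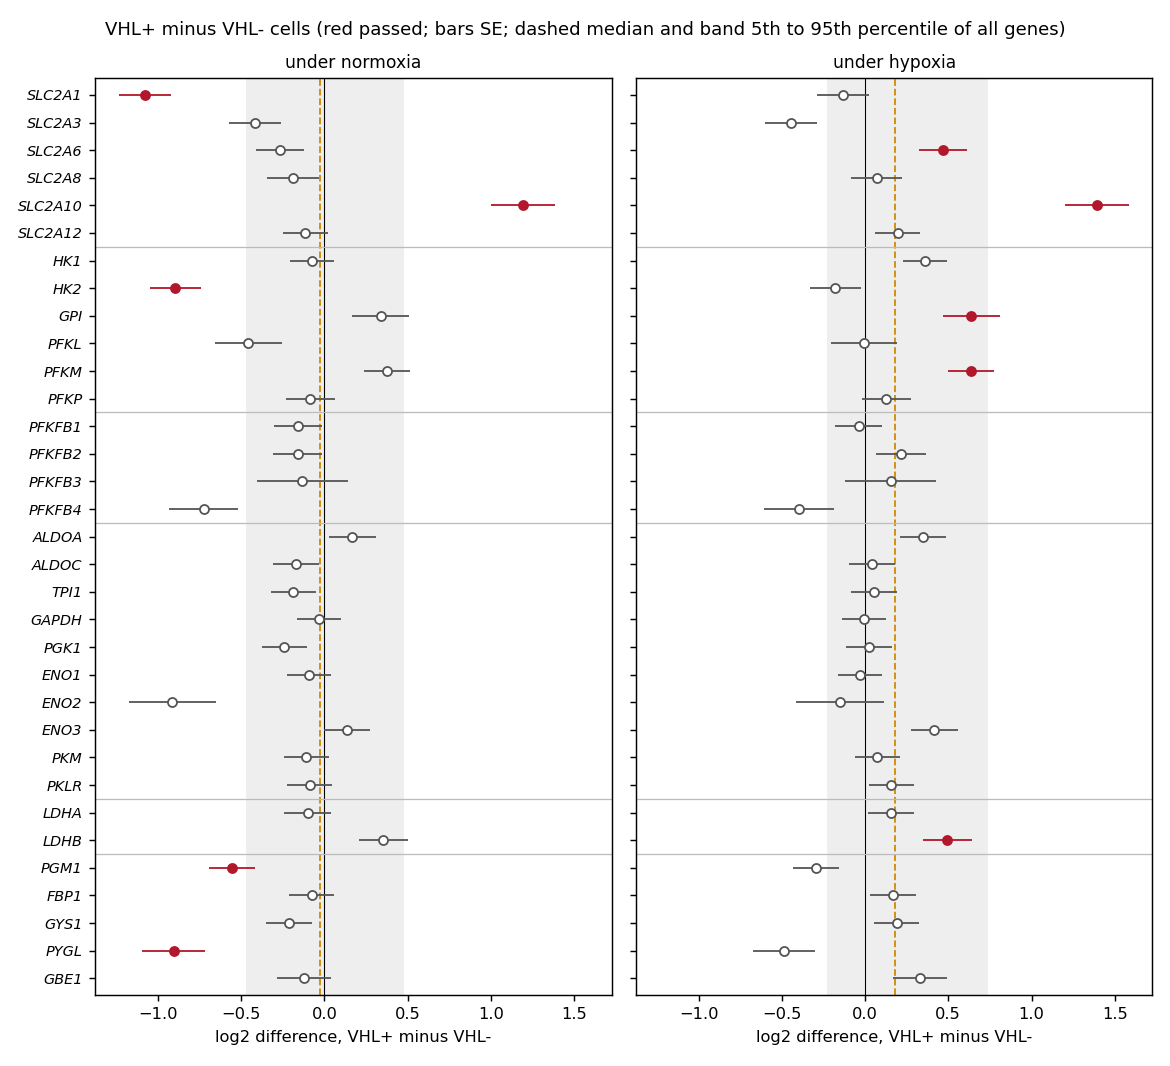
Log2 difference of VHL+ minus VHL- cells (x axis) for the 33 genes in order of their role, under normoxia and under hypoxia. Points are limma estimates over 2 arrays per group, bars standard errors, red points passed, the dashed line is the median and the band the 5th to 95th percentile of all genes. SLC2A1, HK2, PYGL and PGM1 lie left of 0 under normoxia at -1.08, -0.90, -0.91 and -0.55, and SLC2A10 lies above 1 in both panels.

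Hypoxia vs. normoxia in VHL+ cells asks for the response where VHL is present. A total of 2 members were higher, SLC2A1 and HK2, while 0.239% of all genes were higher and 0.00543% were lower. No member was lower in limma, at an unadjusted p under 0.05 or in the methods' one-way test. All 33 members had a positive difference, compared to 85.6% of all genes, and the median was 0.19 compared to 0.11. After quantile normalization 25 members were positive, compared to 54.1% of all genes. In 21 of 33 members both hypoxia arrays were above both normoxia arrays, which was so for 33.9% of all genes. Neither SLC2A1 nor HK2 passed after quantile normalization (1.41, adjusted p = 0.0886, and 0.80, adjusted p = 0.505), and neither passed without VHL+ hypoxia replicate 1 (adjusted p = 0.901 and 0.999) or without VHL+ hypoxia replicate 2 (adjusted p = 0.268 and 0.472).

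In VHL- cells, hypoxia gave no member an adjusted p under 0.05 in limma or a call in the methods' one-way test, while 0.0326% of all genes were higher and 0.0434% lower. At an unadjusted p under 0.05, 1 member was higher (SLC2A1) and 0 were lower. The median member difference was -0.06 compared to -0.11 for all genes, and 13 of 33 members were positive compared to 16.2% of all genes. After quantile normalization 21 members were positive, compared to 53.5% of all genes. Both hypoxia arrays were above both normoxia arrays in 2 members (3.02% of all genes) and below them in 10 members (42.7% of all genes).

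**Figure D2:**
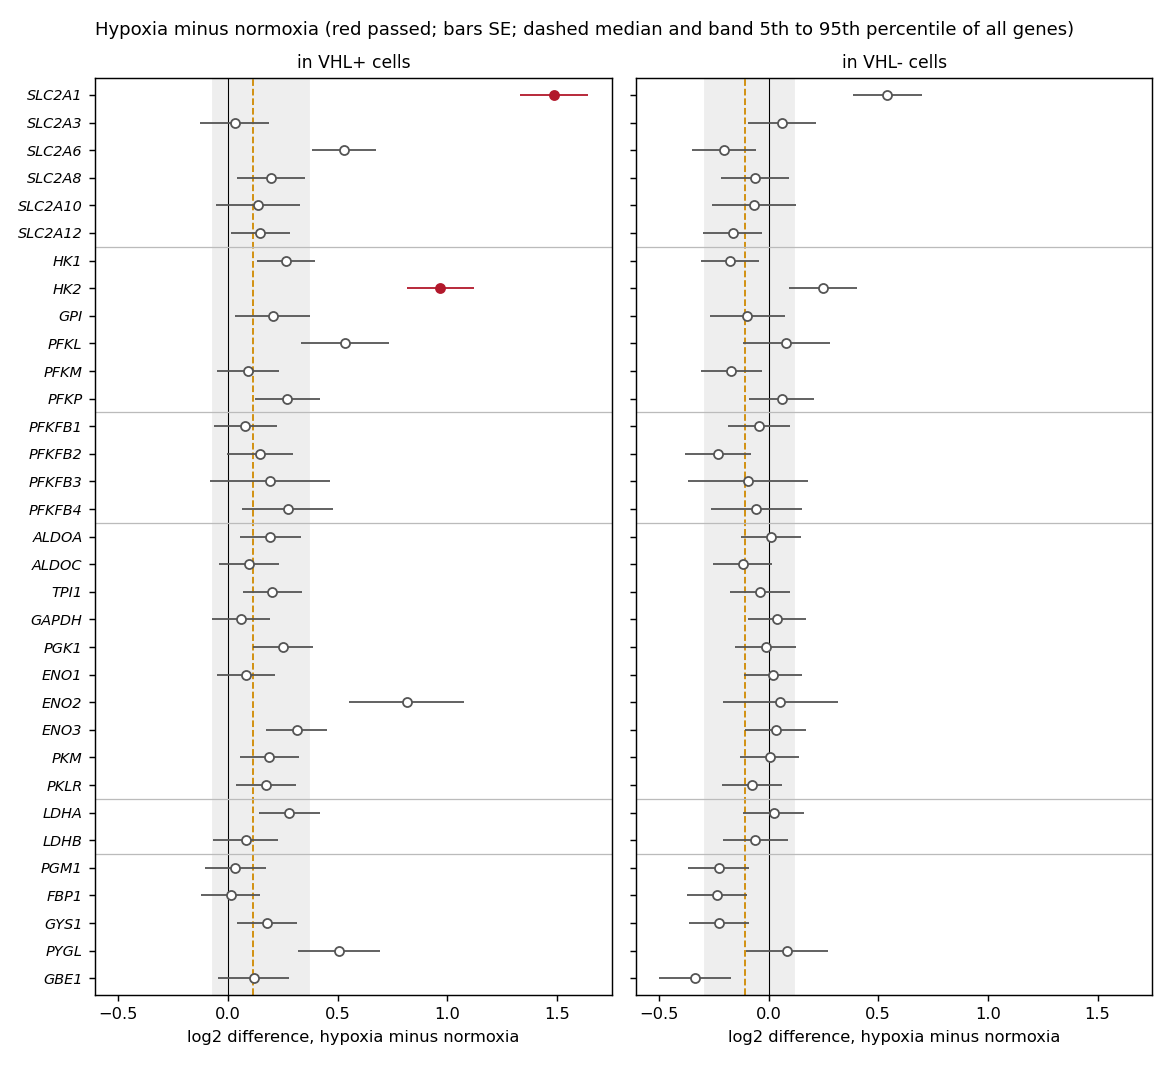
Log2 difference of hypoxia minus normoxia (x axis) for the 33 genes in order of their role, in VHL+ and in VHL- cells. Points are limma estimates over 2 arrays per group, bars standard errors, red points passed, the dashed line is the median and the band the 5th to 95th percentile of all genes. In VHL+ cells SLC2A1 (1.49) and HK2 (0.97) lie farthest right, and in VHL- cells no gene passed and SLC2A1 has the highest difference of the list at 0.54.

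The difference between the hypoxia responses, that is the response in VHL+ cells minus that in VHL- cells, was tested as the interaction. No member and no gene passed in limma (0% of all genes higher and 0% lower), and 4 members had an unadjusted p under 0.05, all of them positive, namely SLC2A1 (0.95, adjusted p = 0.466), SLC2A6 (0.73), HK2 (0.72) and HK1 (0.44), with an adjusted p of 0.651 for the last 3. The methods' one-way test has no counterpart for the interaction. A positive value was found for 32 of 33 members and for 95.9% of all genes, and after quantile normalization for 23 members and for 50.3% of all genes. Between VHL+ hypoxia and VHL- normoxia, 2 members were higher, SLC2A10 and PFKM, and 1 was lower, PGM1, while 8.67% of all genes were higher and 2.15% lower. Here SLC2A1 had a difference of 0.41 (adjusted p = 0.143) and HK2 one of 0.07 (adjusted p = 1.00).

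**Figure D3:**
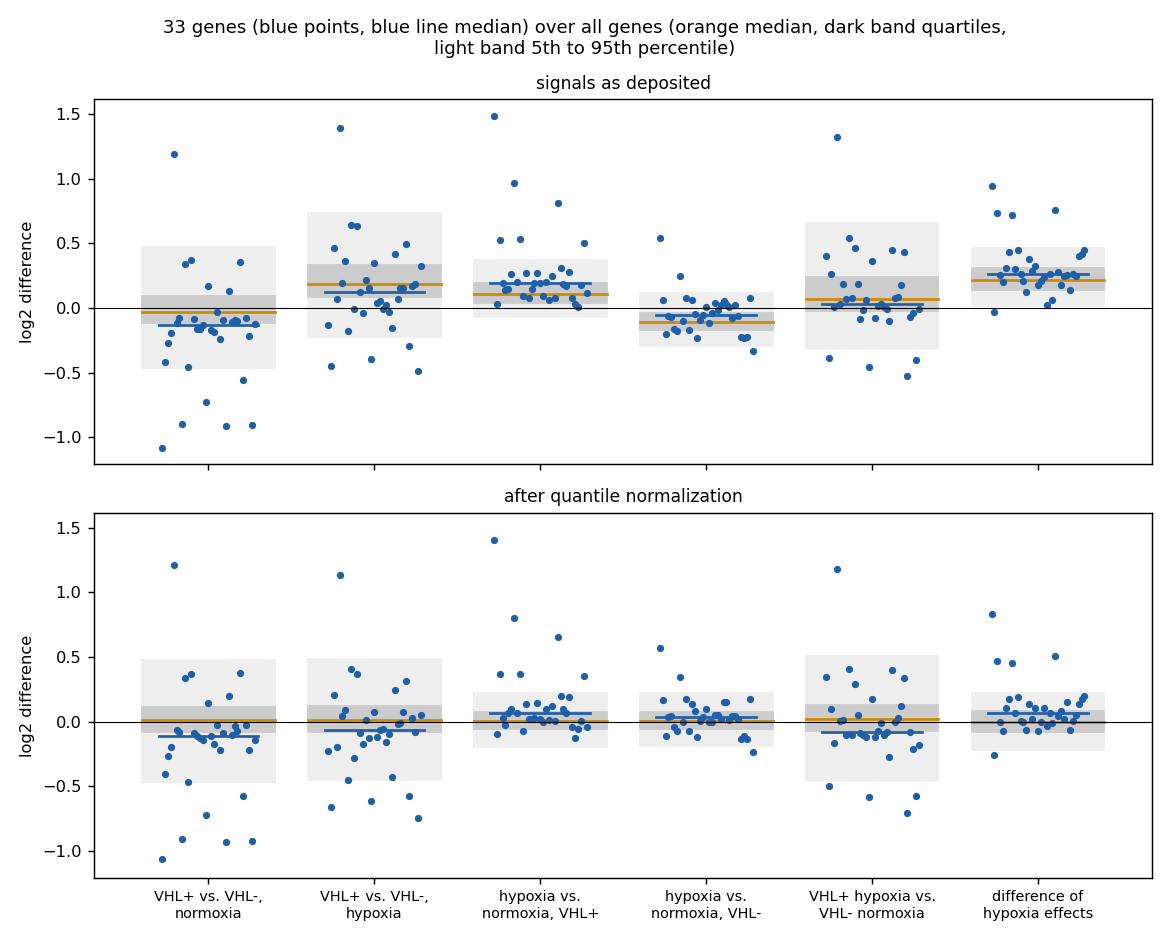
Log2 difference (y axis) of the 33 genes in the 6 comparisons, as deposited and after quantile normalization. Blue points are genes and the blue line their median, the orange line is the median, the dark band the quartiles and the light band the 5th to 95th percentile of all genes. The median of all genes lies at 0.18 and 0.22 for VHL under hypoxia and for the interaction as deposited, and near 0 in the lower panel.

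SLC2A1 encodes GLUT1, the glucose transporter that most cultured cells use for basal uptake. It had signals of 12.61 and 12.47 in VHL+ cells under hypoxia, 10.81 and 11.30 in VHL+ cells under normoxia, 12.63 and 12.71 in VHL- cells under hypoxia and 12.21 and 12.06 in VHL- cells under normoxia. The pair of VHL+ normoxia arrays lay below the 6 others, and in VHL- cells both hypoxia arrays lay above both normoxia arrays. The log2 difference of VHL+ vs. VHL- cells under normoxia was -1.08 (SE 0.16, adjusted p = 0.000296), a level 2.11-fold lower in VHL+ cells. Under hypoxia the same difference was -0.13 (adjusted p = 0.608). With hypoxia SLC2A1 rose 2.80-fold in VHL+ cells (log2 difference 1.49, SE 0.16, adjusted p = 0.000351), and in VHL- cells its difference was 0.54 (adjusted p = 0.422). The difference in VHL- cells passed only in limma with a trend and robust estimation (adjusted p = 0.0194).

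SLC2A10 encodes GLUT10, a transporter whose loss causes arterial tortuosity syndrome. Its signals were 8.74 and 8.45 in VHL+ cells under hypoxia, 8.49 and 8.43 in VHL+ cells under normoxia, 7.38 and 7.02 in VHL- cells under hypoxia and 7.62 and 6.91 in VHL- cells under normoxia. The 4 arrays of VHL+ cells lay above the 4 of VHL- cells, and oxygen did not separate the arrays within either. With VHL, SLC2A10 was 2.28-fold higher under normoxia (log2 difference 1.19, SE 0.19, adjusted p = 0.000815) and 2.63-fold higher under hypoxia (1.39, SE 0.19, adjusted p = 0.000126), and the log2 difference of VHL+ hypoxia vs. VHL- normoxia was 1.33 (adjusted p = 0.00025). The 2 normoxia replicates of VHL- cells differed by 0.71, the widest replicate difference of this gene.

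SLC2A6 encodes GLUT6, a hexose transporter found in intracellular membranes. It had 8.62 and 8.35 in VHL+ cells under hypoxia, 7.85 and 8.06 in VHL+ cells under normoxia, 8.09 and 7.95 in VHL- cells under hypoxia and 8.29 and 8.16 in VHL- cells under normoxia. VHL+ cells under hypoxia had the 2 highest arrays, and under normoxia VHL+ arrays were below VHL- arrays. Its difference of VHL+ vs. VHL- cells was 0.47 under hypoxia (SE 0.14, adjusted p = 0.0436), which became 0.21 after quantile normalization (adjusted p = 0.472), and -0.27 under normoxia (adjusted p = 0.490). The remaining transporters SLC2A3, SLC2A8 and SLC2A12 passed in no comparison, and SLC2A12 was below the median of all 8 arrays. For SLC2A3, which encodes the high-affinity transporter GLUT3, the differences of VHL+ vs. VHL- cells were -0.42 under normoxia (adjusted p = 0.179) and -0.45 under hypoxia (adjusted p = 0.0743). SLC2A3 was named here after its values were seen.

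**Figure D4:**
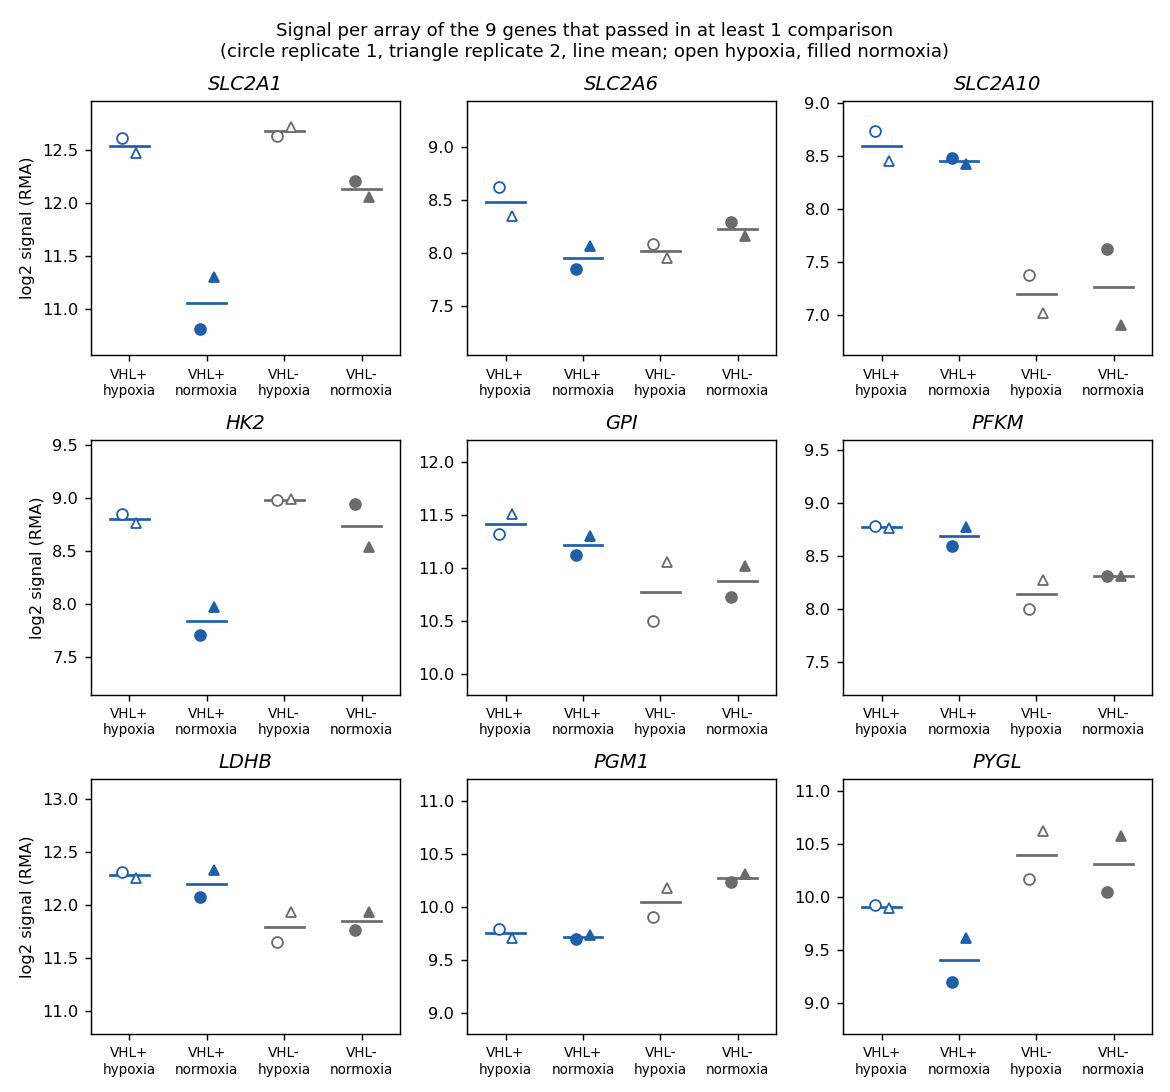
Log2 signal per array (y axis) of the 9 genes that passed in at least 1 comparison, by group (x axis). Circles are replicate 1, triangles replicate 2, lines group means, open symbols hypoxia and filled symbols normoxia, with VHL+ cells in blue and VHL- cells in grey. In the panels of SLC2A1 and HK2 the VHL+ normoxia arrays (10.81 and 11.30, and 7.70 and 7.97) lie below the 6 others, whereas in that of SLC2A10 all arrays of VHL+ cells lie above all arrays of VHL- cells.

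HK2 encodes hexokinase 2, the inducible enzyme that phosphorylates glucose on the outer mitochondrial membrane. Its signals were 8.85 and 8.76 in VHL+ cells under hypoxia, 7.70 and 7.97 in VHL+ cells under normoxia, 8.98 and 8.99 in VHL- cells under hypoxia and 8.94 and 8.53 in VHL- cells under normoxia. As for SLC2A1, the pair of VHL+ normoxia arrays was the lowest, and in VHL- cells the hypoxia arrays were above the normoxia arrays. HK2 was 1.86-fold lower in VHL+ than in VHL- cells under normoxia (log2 difference -0.90, SE 0.15, adjusted p = 0.00136), with -0.18 under hypoxia (adjusted p = 0.497). It rose 1.95-fold with hypoxia in VHL+ cells (0.97, SE 0.15, adjusted p = 0.0104), and in VHL- cells its difference was 0.25 (adjusted p = 0.806). HK1, the constitutive hexokinase, ranged between 8.43 and 8.82 over all arrays and passed in no comparison in limma. In the methods' one-way test HK1 passed for VHL+ vs. VHL- cells under hypoxia (0.36, unadjusted p = 0.00294).

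GPI, the isomerase that converts glucose 6-phosphate to fructose 6-phosphate, had 11.32 and 11.51 in VHL+ cells under hypoxia, 11.13 and 11.30 in VHL+ cells under normoxia, 10.50 and 11.05 in VHL- cells under hypoxia and 10.73 and 11.02 in VHL- cells under normoxia. All arrays of VHL+ cells lay above those of VHL- cells, and the log2 difference passed under hypoxia (0.64, SE 0.17, adjusted p = 0.0206) and was 0.34 under normoxia (adjusted p = 0.427). PFKM, the muscle form of phosphofructokinase, showed the same order of arrays. It had 8.78 and 8.76 in VHL+ cells under hypoxia, 8.60 and 8.77 in VHL+ cells under normoxia, 8.002 and 8.27 in VHL- cells under hypoxia and 8.31 and 8.31 in VHL- cells under normoxia. Its difference was 0.64 under hypoxia (SE 0.14, adjusted p = 0.00628), 0.38 under normoxia (adjusted p = 0.172) and 0.47 for VHL+ hypoxia vs. VHL- normoxia (adjusted p = 0.0493). The other phosphofructokinase genes did not pass, with differences of -0.46 (PFKL, adjusted p = 0.290) and -0.08 (PFKP) for VHL+ vs. VHL- cells under normoxia. The signals of PFKP, the platelet form, lay between 11.05 and 11.49.

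The PFKFB enzymes make and degrade fructose 2,6-bisphosphate, an activator of phosphofructokinase. None of the 4 passed in any comparison, with differences between -0.73 and -0.13 for VHL+ vs. VHL- cells under normoxia. PFKFB4, chosen for naming after its values were seen, had 7.36 and 7.13 in VHL+ cells under hypoxia, 6.90 and 7.05 in VHL+ cells under normoxia, 7.71 and 7.57 in VHL- cells under hypoxia and 8.16 and 7.24 in VHL- cells under normoxia. Its arrays of VHL+ cells were below those of VHL- cells under each oxygen condition, but the replicates of VHL- cells under normoxia differed by 0.93 and the difference of -0.73 did not pass (SE 0.21, adjusted p = 0.0531). PFKFB4 passed under normoxia in limma with a trend and robust estimation (adjusted p = 0.000182) and in the fit blocked on the replicate number (adjusted p = 0.000177). Its difference of VHL+ hypoxia vs. VHL- normoxia, -0.45 (adjusted p = 0.253), passed in both of these fits (adjusted p = 0.0418 and 0.0411) and in the compared groups alone (adjusted p = 0.0438). PFKFB3, a known HIF target, had signals between 9.33 and 10.48 and replicates up to 1.15 apart, the widest of the list. PFKFB1 was below the median of all arrays.

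The enzymes from aldolase to pyruvate kinase split hexose bisphosphate and carry the trioses to pyruvate with a net gain of ATP. Of the 10 measured, none passed in any comparison, although ENO2 and ENO3 passed in some of the alternatives given below. GAPDH had signals between 13.16 and 13.31, ENO1 between 12.97 and 13.18, PKM between 12.29 and 12.62, TPI1 between 12.12 and 12.43 and PGK1 between 11.52 and 11.92. For these 5 genes the differences of VHL+ vs. VHL- cells under normoxia were between -0.24 (PGK1, adjusted p = 0.544) and -0.03 (GAPDH), and those of hypoxia vs. normoxia in VHL+ cells between 0.06 (GAPDH) and 0.25 (PGK1, adjusted p = 0.873). TPI1 has a further cluster with 1 symbol, which gave -0.18 for VHL+ vs. VHL- cells under normoxia and 0.21 for hypoxia vs. normoxia in VHL+ cells, next to -0.19 and 0.20 from the brighter one. ALDOA, the main aldolase of most cells, had a difference of 0.35 for VHL+ vs. VHL- cells under hypoxia (adjusted p = 0.120) and of 0.36 for VHL+ hypoxia vs. VHL- normoxia (adjusted p = 0.141). Several of these genes have processed pseudogenes, and the specificity of the probes was not analysed here.

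ENO2 encodes the gamma enolase of neurons and is also expressed in RCC; it was named after its values were seen. It had 8.34 and 8.89 in VHL+ cells under hypoxia, 7.26 and 8.34 in VHL+ cells under normoxia, 8.47 and 9.06 in VHL- cells under hypoxia and 8.56 and 8.87 in VHL- cells under normoxia. The VHL+ normoxia arrays were below the VHL- normoxia arrays, but replicates 1 and 2 lay 1.08 apart. The difference of VHL+ vs. VHL- cells under normoxia was -0.91 (SE 0.26, adjusted p = 0.0552) and that of hypoxia vs. normoxia in VHL+ cells 0.81 (SE 0.26, adjusted p = 0.476). Both passed in limma with a trend and robust estimation (adjusted p = 0.000282 and 0.0138) and in the fit blocked on the replicate number (adjusted p = 6.14e-07 and 0.000115), for which the labels establish no pairing. The difference with hypoxia in VHL+ cells also passed in the fit to the compared groups alone (adjusted p = 0.000747). ALDOC was below the median of all 8 arrays, and ENO3 and PKLR, the forms of muscle and of liver and red cells, were below it on 6 arrays each. For ENO3, described after its values were seen, the difference of VHL+ hypoxia vs. VHL- normoxia was 0.45 (adjusted p = 0.0587). It passed after quantile normalization (adjusted p = 0.0325), with median centring (0.0400), the replicate block (0.0440), the compared groups alone (0.0469) and the trend (0.0130). It did not pass with the mean of a gene's clusters or in the methods' one-way test.

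LDHA and LDHB encode the subunits of lactate dehydrogenase, of which LDHA favours the formation of lactate. LDHA ranged between 12.45 and 12.84 and did not pass, with differences of -0.10 for VHL+ vs. VHL- cells under normoxia and 0.28 for hypoxia vs. normoxia in VHL+ cells (adjusted p = 0.838). LDHB had 12.30 and 12.25 in VHL+ cells under hypoxia, 12.07 and 12.32 in VHL+ cells under normoxia, 11.64 and 11.93 in VHL- cells under hypoxia and 11.76 and 11.93 in VHL- cells under normoxia. All arrays of VHL+ cells lay above those of VHL- cells. The difference passed under hypoxia (0.49, SE 0.15, adjusted p = 0.0354), where it was 0.32 after quantile normalization (adjusted p = 0.127), and was 0.35 under normoxia (adjusted p = 0.2496).

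PGM1 interconverts glucose 1-phosphate and glucose 6-phosphate and so links glycogen with glycolysis. It had 9.80 and 9.71 in VHL+ cells under hypoxia, 9.70 and 9.73 in VHL+ cells under normoxia, 9.91 and 10.18 in VHL- cells under hypoxia and 10.24 and 10.31 in VHL- cells under normoxia. All arrays of VHL+ cells were below all arrays of VHL- cells. The log2 difference of VHL+ vs. VHL- cells was -0.55 under normoxia (SE 0.14, adjusted p = 0.0238) and -0.29 under hypoxia (adjusted p = 0.203), and VHL+ hypoxia was lower than VHL- normoxia (-0.52, SE 0.14, adjusted p = 0.0258). Hypoxia gave 0.03 in VHL+ cells and -0.23 in VHL- cells, neither of which passed. The normoxia call of PGM1 passed only where 1 of the 2 arrays of VHL- cells under hypoxia was left out, and without any other array its adjusted p was between 0.0578 and 0.212.

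PYGL encodes the liver form of glycogen phosphorylase, which releases glucose 1-phosphate from glycogen. Its signals were 9.92 and 9.89 in VHL+ cells under hypoxia, 9.20 and 9.61 in VHL+ cells under normoxia, 10.17 and 10.62 in VHL- cells under hypoxia and 10.04 and 10.57 in VHL- cells under normoxia. The arrays of VHL+ cells were below those of VHL- cells, and within VHL+ cells hypoxia arrays were above normoxia arrays. PYGL was 1.87-fold lower in VHL+ cells under normoxia (log2 difference -0.91, SE 0.19, adjusted p = 0.00639), with -0.48 under hypoxia (adjusted p = 0.109) and 0.50 for hypoxia vs. normoxia in VHL+ cells (adjusted p = 0.616). The normoxia call of PYGL did not pass without VHL- normoxia replicate 2 (adjusted p = 0.0589). GYS1, the muscle form of glycogen synthase, and GBE1, the branching enzyme, passed in no comparison, with differences of -0.21 and -0.12 for VHL+ vs. VHL- cells under normoxia. FBP1, a gluconeogenic enzyme often lost in RCC, was below the median of all 8 arrays.

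A further 58 genes of sugar transport, isoenzymes, gluconeogenesis, glycogen and the pentose phosphate pathway were measured beside the list. In VHL+ vs. VHL- cells under normoxia 0 were higher and 3 lower, under hypoxia 8 were higher and 3 lower, and for VHL+ hypoxia vs. VHL- normoxia 6 were higher and 1 lower. Under normoxia 0% of them were thus higher and 5.17% lower, against 3.17% and 3.4% of all genes. Under hypoxia 13.8% were higher and 5.17% lower, against 14.3% and 1.72% of all genes. For VHL+ hypoxia vs. VHL- normoxia 10.3% were higher and 1.72% lower, against 8.67% and 2.15% of all genes. In the last 2 comparisons the shares of higher genes were near those of all genes. Hypoxia in VHL- cells gave 1 higher (1.72%, against 0.0326% of all genes) and 0 lower (against 0.0434%). There was no call with hypoxia in VHL+ cells (4 at an unadjusted p under 0.05), where 0.239% of all genes were higher and 0.00543% lower. The interaction gave no call either (3 at an unadjusted p under 0.05, with 0% of all genes called). Of these 22 calls 10 passed after quantile normalization and 0 passed whichever array was left out.

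Among them, G6PC3, the ubiquitous glucose-6-phosphatase, was lower in VHL+ than in VHL- cells under normoxia (-0.73, adjusted p = 0.00663) and under hypoxia (-0.66, adjusted p = 0.00767), and both calls passed after quantile normalization. PHKA1, a regulatory subunit of phosphorylase kinase, the activator of glycogen phosphorylase, was lower too (-0.77 under normoxia, adjusted p = 0.0289, and -0.82 under hypoxia, adjusted p = 0.0106), and after quantile normalization its hypoxia call passed (adjusted p = 0.0226) and its normoxia call did not (adjusted p = 0.0617). PCK2, the mitochondrial phosphoenolpyruvate carboxykinase, had 8.15 and 8.51 in VHL+ cells under hypoxia, 7.46 and 7.72 in VHL+ cells under normoxia, 9.22 and 9.33 in VHL- cells under hypoxia and 7.83 and 8.54 in VHL- cells under normoxia. The hypoxia arrays of VHL- cells were thus the highest, and PCK2 was the gene of these lists that rose with hypoxia in VHL- cells (1.09, SE 0.19, adjusted p = 0.0335, or 0.540 after quantile normalization). Under hypoxia it was lower in VHL+ than in VHL- cells (-0.95, adjusted p = 0.00334).

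Higher in VHL+ than in VHL- cells under hypoxia were RPE, an epimerase of the pentose phosphate pathway (0.80, adjusted p = 0.002), the urate transporter gene SLC2A9 (0.61, adjusted p = 0.00611, with signals below the median of 7 arrays), PGM2 (0.69, adjusted p = 0.00718), TIGAR, a phosphatase of fructose 2,6-bisphosphate (0.68, adjusted p = 0.00866), PPP1R3D, a glycogen-targeting subunit of protein phosphatase 1 (0.53, adjusted p = 0.0170), GYG1, the protein primer of glycogen (0.57, adjusted p = 0.0170), and SLC2A13, a transporter of myo-inositol (0.53, adjusted p = 0.0254). After quantile normalization RPE (adjusted p = 0.0363) and SLC2A9 (adjusted p = 0.0189) passed, and the other 5 of these 7 did not. HKDC1 and PPP1R3B passed for VHL+ hypoxia vs. VHL- normoxia (0.82, adjusted p = 0.0372, and 0.53, adjusted p = 0.0295), of which HKDC1 did not pass after quantile normalization (adjusted p = 0.241). LDHC, the testis form of lactate dehydrogenase, was lower in VHL+ cells under normoxia (-0.54, adjusted p = 0.0417) at signals below the median of all 8 arrays.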

How the data were processed

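Total RNA of the 8 cultures had been hybridized to Affymetrix Human Gene arrays. The authors deposited 1 log2 signal for each transcript cluster and array, normalized with RMA (Robust Multichip Average) in the Partek software (versions not given in the sources used here). These signals range from 4.81 to 14.0. They were used without further transformation. Differences were contrasts of 1 fit with a mean per group over all 8 arrays in limma 3.58.1 (R 4.3.3), with Benjamini-Hochberg adjustment over 33297 clusters and a threshold of 0.05. No member, gene or cluster was filtered out. The fit was also tested on simulated data with known differences for VHL+ vs. VHL- cells under normoxia. It recovered 75% of log2 differences of 1 and 97% of those of 2, with 11 false calls, and smaller differences were not simulated. The simulated noise was independent between arrays, without a shared replicate effect or a shift of array medians. Precision is limited by the number of arrays. The p values of the main fit measure the spread between replicates pooled over the 4 groups (4 residual degrees of freedom). limma draws this spread towards that of all clusters (14 prior degrees of freedom). Arrays outside a comparison therefore enter its p value.

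Members and related gene lists were chosen with earlier results of these data known. Members that passed in any comparison are given with every array, and up to 4 related genes per list that passed, by smallest adjusted p, are named with their differences. Some related genes were not analysed here. Promoter windows came from RefSeq (GRCh38.p14). SLC2A3 and PFKFB2 have no window here. Alternatives were quantile normalization, median centring, the replicate number as a block, limma with a trend and robust estimation, limma on the compared groups alone, leaving out dim clusters, the mean of a gene's clusters, the methods' one-way test at an unadjusted p under 0.005, and each array left out in turn.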

Additional observations from a re-analysis of the deposited data

How the results depend on the processing

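The counts of members that passed depended on the setting, and of 15 calls 9 passed after quantile normalization, 15 with the replicate block and 2 whichever array was left out. In VHL+ vs. VHL- cells under normoxia (1 higher, 4 lower), quantile normalization gave 2 higher, the replicate block and limma with a trend and robust estimation 6 lower each (PFKFB4 and ENO2 added), median centring 3 lower, the compared groups alone 0 and 0, and the methods' one-way test 0 higher and 1 lower. Under hypoxia (5 higher, 0 lower), quantile normalization gave 1 higher and 2 lower, while 4.19% of all genes were higher and 3.62% lower. Median centring gave 2 and 1, the replicate block 2 lower, and the compared groups alone and the trend 1 lower each. The one-way test gave 1 higher, HK1, and none of the 5 calls passed in it. Hypoxia in VHL+ cells (2 higher) gave 0 higher after quantile normalization, median centring and the one-way test, 1 with dim clusters left out, and 3 (ENO2 added) with the replicate block, the compared groups alone and the trend. In VHL- cells the trend gave 1 higher (SLC2A1, adjusted p = 0.0194). VHL+ hypoxia vs. VHL- normoxia (2 higher, 1 lower) gave 3 and 1 after quantile normalization (ENO3 added), while 5.17% of all genes were higher and 3.97% lower. It gave 4 and 2 with the replicate block and with the compared groups alone, 5 and 2 with the trend, 1 higher with dim clusters left out, and 1 and 0 with the one-way test. The interaction gave 1 higher (SLC2A1, adjusted p = 0.0128 with the block) with the replicate block and with the trend. The shares of all genes that passed were not computed for the alternatives other than quantile normalization, nor with 1 array left out. The median of members relative to all genes for VHL under hypoxia was -0.18 with dim clusters left out.

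With 1 array left out, members higher and lower numbered 0 to 1 and 2 to 6 for VHL under normoxia, 0 to 6 and 0 to 2 for VHL under hypoxia, 0 to 3 and 0 to 0 for hypoxia in VHL+ cells, 0 to 0 and 0 to 0 in VHL- cells, 0 to 5 and 0 to 1 for VHL+ hypoxia vs. VHL- normoxia, and 0 to 2 and 0 to 0 for the interaction. The median of members relative to all genes then ran from -0.19 to -0.07, from -0.18 to 0.0179, from -0.01 to 0.16, from 0.00 to 0.10, from -0.14 to 0.08 and from 0.01 to 0.11 in the same order, so that its direction turned in 3 comparisons: for VHL under hypoxia without VHL+ hypoxia replicate 1 (0.0179), for hypoxia in VHL+ cells without VHL+ hypoxia replicate 2 (-0.01), and for VHL+ hypoxia vs. VHL- normoxia without VHL+ hypoxia replicate 1 (0.0773) or VHL- normoxia replicate 2 (0.0096). With either VHL+ hypoxia array left out 2 of the 15 calls passed (SLC2A1 and HK2 for VHL under normoxia), and with any other array left out 10 to 14 did. SLC2A6 passed only without a VHL+ normoxia array, and GPI, PFKM and LDHB under hypoxia did not pass without VHL- hypoxia replicate 1.

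The VHL signal differed between VHL+ and VHL- cells by 0.52 under normoxia, which did not pass with the compared groups alone, with the trend, with dim clusters left out or in the one-way test (0.52 each), nor with median centring (0.57, adjusted p = 0.0549). Under hypoxia it differed by 0.75, which did not pass in the one-way test (0.75) or with median centring (0.57). With 1 array left out these differences were 0.43 to 0.61 and 0.61 to 0.89. The normoxia call then passed in 2 of 8 fits, those without a VHL- hypoxia array (adjusted p up to 0.436 in the others), and the hypoxia call in 6 of 8, not without VHL+ hypoxia replicate 1 or 2 (adjusted p = 0.0787 and 0.0729). The cause of these dependences was not tested. The replicate numbers are shared between groups without a label that marks a common culture, so the block stays an alternative. The deviations of same-numbered arrays correlated positively across clusters for every pair of groups, with 0.0503 to 0.605. The correlation was highest between the VHL- groups (0.605), followed by that between the VHL+ groups (0.305). Whether same-numbered arrays share a culture was not tested. The one-way test and the fit to the compared groups alone were not run for the interaction. With 2 arrays per group, a gene that did not pass, such as TPI1, is not shown to be unaffected.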
